A study of Mus musculus with 4 samples.

Results

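Gamma-delta (γδ) T cells of the small-intestinal lamina propria were examined as single cells. They were chosen by marker counts in unique molecular identifiers (UMIs), each of which stands for 1 captured transcript. A barcode was kept with at least 500 UMIs, 200 to 2500 genes and at most 15% mitochondrial UMIs. It was called a γδ T cell with 2 or more UMIs of Trdc, the constant region of the receptor δ chain, and at least 1 UMI of the CD3 chains (Cd3e, Cd3d or Cd3g). Barcodes with a Foxp3 UMI, with 2 or more UMIs of Cd8a and Cd8b1, or with 2 or more of the stromal genes Col1a1, Col1a2, Col3a1, Dcn and Des were left out. The rule found 125 γδ T cells among 58963 filtered barcodes, 66 of 22087 in the WT library and 59 of 36876 in the A20ZF7 library. Cells with a UMI of Cd163l1, a scavenger receptor gene listed as Scart1 for the WT library, numbered 34 (19 WT and 15 A20ZF7), and cells without one numbered 91 (47 WT and 44 A20ZF7).

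The study asked how linear-ubiquitin binding by A20, the product of Tnfaip3, bears on intestinal T cells. A20ZF7 mice were homozygous for knock-in point mutations in zinc finger 7 of A20 in all cells, so both copies were altered in every cell type. Each genotype was represented by 1 library of cells pooled from 2 mice of 12 weeks, with no treatment named, in which 60000 lamina propria cells depleted of other lineages, to enrich T cells and innate lymphoid cells, entered a 5′ droplet kit. With 1 library per genotype there was no replicate, and no test between WT and A20ZF7 was possible. Intervals in brackets are 95% intervals, exact except for ratios of shares, which have log-method intervals. They cover counting error only, so a difference between genotypes cannot be told apart from one between libraries or mice. The γδ T cells held 82565 UMIs in WT and 74950 in A20ZF7, with medians of 943.5 and 950 UMIs per cell.

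γδ T cells carry a receptor built from a γ and a δ chain in place of the α and β chains of conventional T cells, and many respond without classical antigen presentation. In mouse barrier tissues they include cells poised to make IL-17 and IL-22, which depend on IL-23 and IL-1 and often bear Cd163l1 and Blk, and cytotoxic cells with granzymes and chemokines, which are abundant next to the gut epithelium. A20 restrains NF-κB signalling downstream of receptors such as those for TNF and IL-1.

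Surface proteins of the WT library were read with antibodies that each carry a 15-base DNA tag, and mouse of origin with hashtag antibodies that label every cell of 1 animal. The 7 tags below are shown because they bear on the lineage of the γδ T cells (the γδ receptor, the β chain, CD3, CD4 and CD90.2) or on the WT mouse they came from, and the whole tag, in capitals, is what was counted. Greek letters are missing from the names in the deposited list. C0121, listed as TCR, is taken here for the γδ receptor antibody, and C0120, listed as TCRchain, for the β-chain antibody.
TCR γδ (C0121): AACCCAAATAGCTGA
TCR β chain (C0120): TCCTATGGGACTCAG
CD3 (C0182): GTATGTCCGCTCGAT
CD4 (C0001): AACAAGACCCTTGAG
CD90.2 (C0075): CCGATCAGCCGTTTA
hashtag7, WT mouse 1: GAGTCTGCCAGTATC
hashtag8, WT mouse 2: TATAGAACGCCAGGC

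Trdc was sparse, and most cells lay at the limit. Among barcodes that passed every other limit, 251 in WT and 248 in A20ZF7 had exactly 1 Trdc UMI and lay just outside. Just inside, 49 and 51 had 2, 13 and 6 had 3, and 4 and 2 had 4 Trdc UMIs. Of all barcodes with 2 or more Trdc UMIs, 107 in WT and 105 in A20ZF7, no CD3 chain UMI was found in 22 of each library. A Foxp3 UMI was found in 0 and 7, excess Cd8a and Cd8b1 in 3 and 1, and excess stromal UMIs in 21 and 27. A single CD3 chain UMI was held by 28 of the 66 WT and 21 of the 59 A20ZF7 γδ T cells. The libraries shared 1159 filtered barcode sequences, and 6 WT γδ barcodes were among the A20ZF7 filtered barcodes and 3 A20ZF7 γδ barcodes among those of WT. No barcode was a γδ T cell in both.

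The label was checked with genes outside the rule. A UMI of any of the γ-chain constant genes Trgc1 to Trgc4 was found in 43.9% (31.7 to 56.7) of WT and 42.4% (29.6 to 55.9) of A20ZF7 γδ T cells. The comparison cells had a CD3 chain UMI and no Trdc UMI, with a Cd4 UMI for CD4 T cells and at least 2 Cd8a and Cd8b1 UMIs for CD8 T cells. There the share was 14.7% and 19.9% in CD4 T cells and 24.1% and 20.1% in CD8 T cells. In barcodes marked by 5 or more stromal UMIs and free of CD3 and Ptprc, which should lack the gene, it was 2.42% and 3.92%, at median depths of 1069 and 908.5 UMIs. Trgc was therefore most frequent in the γδ T cells, although it was detected in fewer cells than not.

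Trac, the constant region of the α chain, was found in 9.09% (3.41 to 18.7) of WT γδ T cells against 39.5% of CD4 and 37.9% of CD8 T cells. In A20ZF7 it was found in 27.1% (16.4 to 40.3) against 38.1% and 42.4%, so the A20ZF7 γδ T cells stood less apart on this gene. Trbc2, a β-chain constant gene, did not separate them in either library, at 40.9% and 39.0% against 39.5% and 44.7% of CD4 T cells. A UMI of Trgc or of any γ or δ variable gene was found in 40 of 66 WT and 34 of 59 A20ZF7 cells. The remaining cells had none of these, so among receptor genes their lineage rests on Trdc alone. Of them, 14 in WT and 20 in A20ZF7 also had a Trac, Trbc1 or Trbc2 UMI. Stray transcripts were not tested as a source of these UMIs. Trac was found in 1.98% and 5.66% of stromal-marked barcodes.

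**Figure D1:**
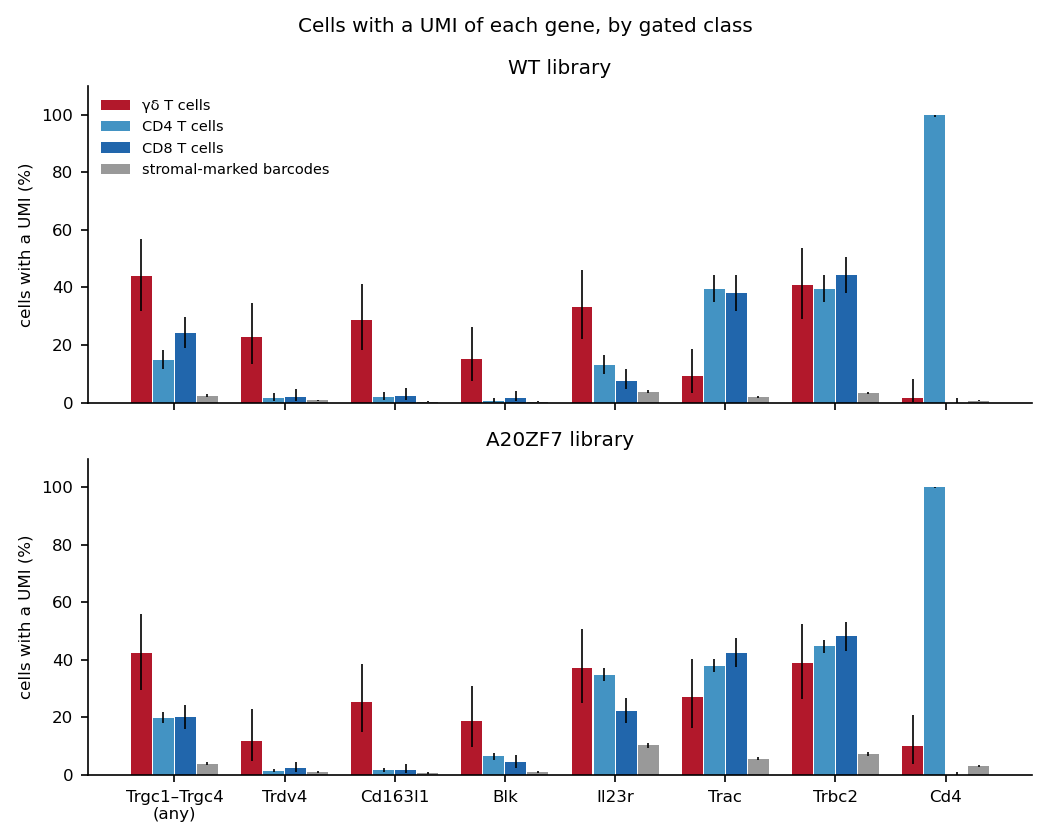
Percentage of cells with a UMI of each gene (y axis) in γδ T cells, CD4 T cells, CD8 T cells and stromal-marked barcodes of the WT (top) and A20ZF7 (bottom) libraries. Bars are shares and lines exact binomial 95% intervals. Trgc, Trdv4, Cd163l1 and Blk are highest in γδ T cells of both libraries, Trac is lowest in WT γδ T cells among the T cells, and the Trbc2 intervals of the 3 T cell classes overlap.

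Cd163l1 and Blk, which the selection did not use, were concentrated in the γδ T cells. Cd163l1 was found in 28.8% (18.3 to 41.3) of WT and 25.4% (14.98 to 38.4) of A20ZF7 γδ T cells, and in 1.79% and 1.74% of CD4 T cells, 2.37% and 1.82% of CD8 T cells and 0.255% and 0.677% of stromal-marked barcodes. Blk, a Src-family kinase of IL-17-committed γδ T cells, was found in 15.2% and 18.6%, against 0.446% and 6.46% of CD4 T cells. Sox13, a transcription factor of the same lineage, was near the limit of detection, with 4 UMIs in WT and 2 in A20ZF7. On mm10, the submitters' genome build, Trdc lies on the plus strand of chromosome 14 from 54142851 to 54148868, Cd163l1 on chromosome 7 from 140218267 to 140231145, and Trgc1 on chromosome 13 from 19214103 to 19217024.

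Variable genes of the receptor could be read in part because the kit captures the 5′ end of transcripts. A γ variable gene was found in 14 of 66 WT γδ T cells (21.2%), against 5.13% of CD4 and 9.49% of CD8 T cells, and in 5 of 59 A20ZF7 γδ T cells (8.47%), against 6.62% and 9.90%. A δ variable gene was found in 24 WT (36.4%) and 10 A20ZF7 γδ T cells (16.9%), against 3.13% and 2.55% of CD4 and 4.35% and 3.91% of CD8 T cells. The δ variable genes thus set γδ T cells apart in both libraries, and the γ variable genes did so in WT but not in A20ZF7. Trdv4 led the δ chain, with 17 of 29 δ variable UMIs in WT (58.6%, 38.9 to 76.5) and 9 of 14 in A20ZF7 (64.3%, 35.1 to 87.2). It was detected in 22.7% (13.3 to 34.7) of WT and 11.9% (4.91 to 22.9) of A20ZF7 γδ T cells, against 1.56% and 1.41% of CD4 T cells. Of the γ variable genes, Trgv2 had 8 UMIs in WT and 3 in A20ZF7, Trgv6 had 5 and 0, and Trgv1 had 4 and 2. Trgv3, Trgv4, Trgv5 and Trgv7 had none in γδ T cells of either library, and with 17 and 5 γ variable UMIs in all the usage of single genes was not resolved at this depth. Of the 5 Trgv6 UMIs, 4 lay in Cd163l1-positive cells, whereas 7 of the 8 WT Trgv2 UMIs lay in Cd163l1-negative cells. Trgv2 UMIs were also found in other T cells (CPM is the usual counts-per-million scaling of a gene's UMIs by all UMIs of its class). In WT it was at 96.9 CPM in γδ T cells against 26.5 in CD4 and 54.3 in CD8 T cells. In A20ZF7 it was at 40.03 CPM in γδ T cells against 42.8 and 72.4, so it was no higher there than in the other classes.

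γδ T cells made up a smaller share of the A20ZF7 library than of the WT library. They were 0.299% (0.231 to 0.380) of filtered barcodes in WT and 0.160% (0.122 to 0.206) in A20ZF7, a ratio of 0.535 (0.377 to 0.760). CD4 T cells went the other way, from 2.03% to 4.995%, a ratio of 2.46 (2.22 to 2.73), while CD8 T cells were 1.15% and 1.04%, a ratio of 0.909 (0.776 to 1.06). Among gated γδ, CD4 and CD8 T cells, γδ T cells were therefore 8.60% in WT and 2.58% in A20ZF7, a ratio of 0.300 (0.213 to 0.422). Set against CD8 T cells alone they were 20.7% and 13.3%, a ratio of 0.644 (0.467 to 0.887). Shares move with every other population in the library and with the enrichment, and the number of γδ T cells per intestine was not measured.

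The 2 WT mice were alike. Mouse 1 gave 19 γδ T cells among 4657 barcodes with its hashtag (0.408%, 0.246 to 0.636) and mouse 2 gave 22 among 5457 (0.403%, 0.253 to 0.610). Barcodes with both hashtags held 12 among 2204 (0.544%), and barcodes with no hashtag call 13 among 9769 (0.133%). Each WT mouse lay above the upper end of the A20ZF7 interval, and the barcodes with no call did not. The mouse shares leave out barcodes with both hashtags or no call, whereas the A20ZF7 share is over all filtered barcodes, so the denominators are unlike. Of barcodes with a CD3 chain UMI, which were 31.5% of filtered barcodes in WT and 54.0% in A20ZF7, γδ T cells made up 0.974% and 0.908% in the mice, 1.01% with both hashtags, 0.938% with no call and 0.296% (0.226 to 0.382) in A20ZF7. Hashtag counts were not used for A20ZF7, because its deposited antibody matrix was identical to that of WT, so the spread between A20ZF7 mice is unknown. The Cd163l1-positive share was 5 of 19 cells in mouse 1 and 8 of 22 in mouse 2, and the A20ZF7 to WT ratio of that share was 0.883 (0.495 to 1.58).

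**Figure D2:**
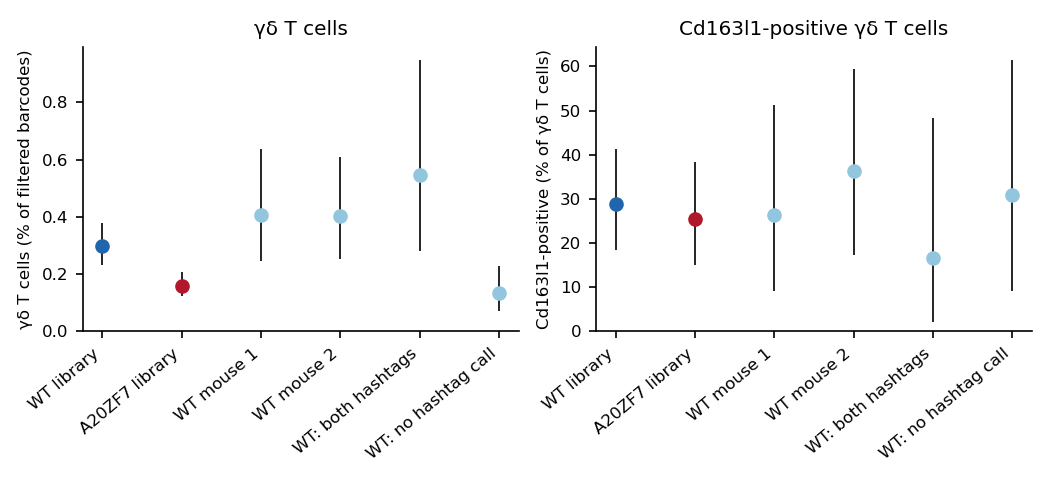
γδ T cells as a percentage of filtered barcodes (left) and Cd163l1-positive cells as a percentage of γδ T cells (right), for the WT and A20ZF7 libraries and for the parts of the WT library set by hashtag. Points are shares and lines exact binomial 95% intervals. The WT mice sit at 0.408% and 0.403%, both above the A20ZF7 library at 0.160%, WT barcodes without a hashtag call sit at 0.133%, and the Cd163l1-positive shares overlap throughout. The library shares are over all filtered barcodes, and those of the mice only over barcodes with their hashtag.

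γδ T cells were next set against other T cells of the same library. A gene was compared where it reached, in either class, the CPM that 20 UMIs give in the γδ T cells, and called at a 2-fold difference. In WT, 7.95% of 717 genes were called higher than in CD4 T cells and 4.04% lower (12% in all), and 8.37% were called higher than in CD8 T cells and 3.63% lower (12% in all). In A20ZF7, 1.84% of 599 genes were called higher than in CD4 T cells and 2.34% lower (4.17% in all), and 2.19% of 594 were called higher than in CD8 T cells and 2.86% lower (5.05% in all). The genes with the largest ratios over both classes in WT, each past 2-fold over both, included Cd163l1, Igf1r, Ablim3, Cxcl10, Slc7a6os, Trgc1, Ikzf2, Rbp2 and Pxdc1. Those in A20ZF7 were Ckb, Trgc1, Arf1, Ikzf2, Ddx39b, Eif3j1, Set, Eif5, Edem1 and Ssh2. Of the latter, Ckb, Trgc1 and Eif3j1 passed 2-fold over both classes, Arf1 and Ddx39b over 1 of them and the others over neither. Trgc1 and Ikzf2 stood in both sets, and of these Trgc1 passed 2-fold over both classes in both libraries, at 266 CPM against 67.9 and 62.8 in WT and 334 against 129 and 51.7 in A20ZF7. Rbp2, an enterocyte retinol-binding protein, rested on 1 WT barcode that held 155 of its 173 UMIs.

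Ikzf2 encodes Helios, a transcription factor of regulatory and innate-like T cells. It was at 787 CPM in WT γδ T cells against 219 in CD4 and 194 in CD8 T cells, from which Foxp3-positive cells had been left out. In A20ZF7 it was at 654 against 385 and 352 CPM, so the ratio over CD4 T cells was 3.60 in WT and 1.70 in A20ZF7. Il23r, the receptor subunit for IL-23, was 400 CPM in WT γδ T cells against 133 and 85.7, and 454 in A20ZF7 against 386 and 198. Il23r thus set γδ T cells apart from CD4 T cells in WT but hardly in A20ZF7, where it was the CD4 T cell level that was higher. Il7r, the IL-7 receptor chain, was 1284 CPM in WT γδ T cells against 706 and 431, and 600 in A20ZF7 against 418 and 436. Cd6, a receptor of mature αβ T cells, was 24.2 CPM against 174 and 157 in WT but 120 against 157 and 119 in A20ZF7. Ccl5, a chemokine of cytotoxic and memory cells, was between the other classes in both libraries, at 5075 CPM against 1733 and 11726 in WT and 6431 against 2995 and 10377 in A20ZF7.

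Within the γδ T cells, Ccl5 and Nkg7 were called lower by CPM, and Il22 higher, in Cd163l1-positive cells of both libraries. The Il22 difference in WT rested on 1 mouse, and at 3 or more Trdc UMIs Ccl5 turned to higher in both libraries and Nkg7 in A20ZF7. By detection, any of Gzma, Gzmb and Ccl5 was found in 8 of 19 positive and 22 of 47 negative WT cells and in 13 of 15 and 33 of 44 A20ZF7 cells, so the share was not lower in positive cells of A20ZF7. Because the split uses 1 transcript, a cell without a UMI may still express the gene, and Cd163l1-positive cells were deeper, at a median of 1346 against 874 UMIs in WT and 1094 against 923 in A20ZF7. At the level that 20 UMIs in the higher group give, 7.62% of 341 genes were called 2-fold higher and 8.21% lower in Cd163l1-positive cells of WT, and 1.75% and 16.1% of 285 genes in A20ZF7. In all, 15.8% were called in WT and 17.9% in A20ZF7. With 1 CPM limit for both groups the calls were 9.39% higher and 3.97% lower of 277 in WT (13.4% in all), and 3.52% and 6.34% of 142 in A20ZF7 (9.86% in all), so the balance of higher and lower calls depends on the filter. The calls also depended on the Trdc limit. Of the named genes past 2-fold, 4 of 25 in WT and 5 of 18 in A20ZF7 were still so in the same direction with cells of 1 Trdc UMI taken in. Of the 21 cytotoxic and intraepithelial genes listed, 4 passed the filter in each library. In WT 3 of these were called, all lower (Nkg7, Ccl5 and Cd7), and in A20ZF7 all 4, also lower (Nkg7, Ccl5, Gzma and Gzmb). Nkg7 in both libraries and Gzmb in A20ZF7 reached 20 UMIs only in the negative cells, where they were higher. Such members could only be called lower, so these counts do not show a change of the list. Ccl5 and Gzma reached 20 UMIs in both groups of each library. Gzma and Gzmb also turned to higher in A20ZF7 at 3 or more Trdc UMIs.

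Il22, the epithelium-directed cytokine, was higher in Cd163l1-positive cells. It was found in 5 of 19 Cd163l1-positive WT cells (28 UMIs, 17 of them in 1 cell) and 6 of 47 negative cells (15 UMIs), at 799 and 316 CPM, a ratio of 2.53 (1.31 to 5.10). In A20ZF7 it was found in 6 of 15 positive cells (23 UMIs, 6 at most in 1 cell) and 5 of 44 negative cells, each with 1 UMI, at 1169 and 90.5 CPM, a ratio of 12.9 (4.81 to 43.5). With cells of 1 Trdc UMI taken in, the ratios were 2.27 in WT and 1.95 in A20ZF7, so the size of the A20ZF7 difference depended on the limit. The WT direction rested on mouse 2, which held 25 of the 28 UMIs, and without it the ratio was 0.568.

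Il17a, the signature cytokine of type 17 cells, had 7 UMIs in 2 Cd163l1-positive and 1 UMI in 1 negative WT cell. In A20ZF7 it was found at about the same frequency in both, 5 of 15 and 14 of 44 cells, but at more UMIs per cell, 2846 against 1049 CPM, a ratio of 2.71 (1.85 to 3.99). A single A20ZF7 cell held 24 of the 56 UMIs in positive cells, and among cells without a Trac or Trbc UMI the ratio turned to 0.329. The CPM difference for Il17a in A20ZF7 thus rested on few cells, while the intervals of the shares, 33.3% (11.8 to 61.6) and 31.8% (18.6 to 47.6), overlap.

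By CPM, Ccl5 was lower in Cd163l1-positive cells, at 2995 against 6609 CPM in WT (ratio 0.453, 0.360 to 0.567) and 2999 against 7653 in A20ZF7 (0.392, 0.293 to 0.515). Gzma, a granule protease, was at 1598 against 2905 CPM in WT (0.550, 0.396 to 0.755) and 1372 against 5120 in A20ZF7 (0.268, 0.174 to 0.398). Nkg7, a granule-membrane protein of cytotoxic cells, was at 371 against 1031 CPM in WT (0.360) and 203 against 796 in A20ZF7 (0.255). The CPM of these 3 genes was lower in positive cells of both libraries. The share of cells with a Ccl5 UMI was 31.6% of Cd163l1-positive and 44.7% of negative WT cells, but 73.3% and 56.8% of A20ZF7 cells, and 73.3% and 50% there after thinning to 500 UMIs. In A20ZF7 the detection of Ccl5 thus lay in the opposite direction to its CPM. For Gzma the shares of cells with any UMI were close, at 26.3% of Cd163l1-positive and 23.4% of negative WT cells and 40% and 47.7% of A20ZF7 cells. Within WT mouse 1 the Gzma ratio was 1.17, because 1 Cd163l1-positive cell held 39 of the 56 UMIs, and within mouse 2 it was 0.253. At 3 or more Trdc UMIs, with 17 and 8 cells in all, Gzma (31.3 in WT and 11.9 in A20ZF7) and Ccl5 (1.498 and 6.19) turned to higher in positive cells.

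Receptors of the type 17 programme were detected in more Cd163l1-positive than negative cells, while their CPM ratios were nearer to 1 than that of Il22. Il23r was found in 52.6% of Cd163l1-positive and 25.5% of negative WT cells and in 53.3% and 31.8% of A20ZF7 cells, with CPM ratios of 1.44 and 1.97 whose intervals include 1. Il7r was found in 78.9% against 55.3% in WT and 86.7% against 31.8% in A20ZF7, at CPM ratios of 1.12 and 2.05. Blk was found in 36.8% against 6.38% and 26.7% against 15.9%, and Trdv4 in 36.8% against 17.0% and 26.7% against 6.82%. Each of these 4 genes was detected more often in Cd163l1-positive cells of both libraries, which were also deeper. After every cell was thinned to 500 UMIs, Il23r remained in 4 of 19 against 6 of 47 cells of WT and 4 of 15 against 8 of 44 of A20ZF7. Rora, a driver of the type 17 fate, had ratios of 1.14 and 1.29, and Maf had 1.17 and 0.826, so neither separated the groups. Of 26 transcription factors listed, 6 passed the filter in WT and 5 in A20ZF7, and none was called in either direction. Over all genes 15.8% were called in WT and 17.9% in A20ZF7, so with so few members tested the count does not set the list apart.

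Other genes at the ends of the Cd163l1 comparison differed between the libraries. In WT the 10 largest ratios were those of Apoa1, Apoa4, Fabp1, Fabp2, Prap1, Pigr, Rbp2 and Spink1, all enterocyte genes, with Cd74 and Atpif1. A single Cd163l1-positive WT barcode held 493 of the 543 enterocyte UMIs of all WT γδ T cells. The 10 smallest in WT were Il12rb2, Cd226, Ccnl1, Mif, Slc9a9, Fam107b, Kansl1, Abcb1a, Hmgb2 and Ccnd2. With cells of 1 Trdc UMI taken in, Ccnl1 (1.03), Slc9a9 (1.15) and Ccnd2 (1.05) were no longer lower, and Il12rb2 (0.430) alone of the 10 was still past 2-fold. Il12rb2, the IL-12 receptor chain of interferon-γ-producing cells, had 1 UMI in positive and 21 in negative WT cells, a ratio of 0.0645 (0.00156 to 0.401), and 1 against 7 in A20ZF7. Cd226, an activating receptor, had 2 against 21 UMIs in WT, a ratio of 0.129, but 4 against 5 in A20ZF7, a ratio of 2.25.

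In A20ZF7 the genes highest in Cd163l1-positive cells included Il22, Il17a, Pim1, Nfkbia, Dgat1, Klf6, Ly6e, Jun and Tnfaip3, and of these only Il22, Il17a, Pim1, Nfkbia and Dgat1 passed 2-fold. Pim1, a kinase induced by STAT signalling, was at 1220 against 470 CPM (2.59, 1.43 to 4.70), and Nfkbia, the NF-κB inhibitor IκBα, at 1169 against 470 CPM (2.49, 1.36 to 4.53). In WT the same ratios were 1.36 and 1.24. With cells of 1 Trdc UMI taken in, the A20ZF7 ratios were 1.47 for Pim1, 1.42 for Nfkbia and 1.63 for Dgat1, all within 2-fold. The lowest were Hnrnpab, Maml2, Txn1, Serbp1, Crip1, Uqcr11, Nme2, Gzmb, Nkg7 and Gzma.

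**Figure D3:**
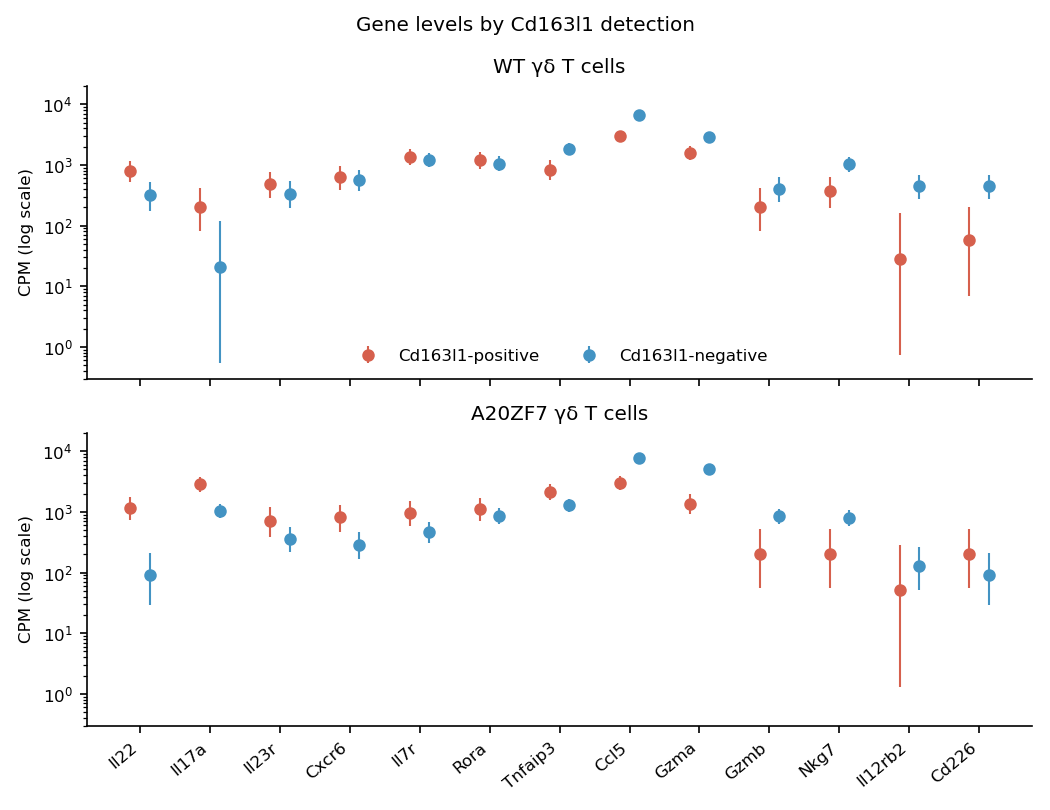
Level of each gene in Cd163l1-positive and Cd163l1-negative γδ T cells of WT (top) and A20ZF7 (bottom), in CPM on a log axis, with exact Poisson 95% intervals. By CPM, Il22 and Il17a are higher and Ccl5, Gzma and Nkg7 lower in Cd163l1-positive cells of both libraries, while Tnfaip3 lies in opposite directions. Il17a in WT rests on 7 UMIs against 1, and Il22 in WT on mouse 2. Il17a in A20ZF7 turned without Trac or Trbc UMIs. At 3 or more Trdc UMIs, Ccl5 and Gzma turned in both libraries and Nkg7 in A20ZF7.

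Between genotypes, Il17a and Gzmb were called higher in A20ZF7 γδ T cells, and Il7r, Cd69 and Ltb lower. With cells of 1 Trdc UMI taken in (317 WT and 307 A20ZF7 cells), Il17a was still past 2-fold, at a ratio of 5.15. Gzmb was at 1.98, Il7r at 0.726, Cd69 at 0.683 and Ltb at 0.891, so these 4 calls were lost. Of 724 genes with at least 20 UMIs in the library of higher CPM, 37 (5.11%) were called 2-fold higher in A20ZF7 and 67 (9.25%) lower (14.4% in all), with a median ratio of 0.944. Because libraries differ as a whole, each γδ ratio is set beside the A20ZF7 to WT ratio of the same gene in all other filtered barcodes, called the remaining barcodes. Their mix of cell types differed too: a CD3 chain UMI was found in 31.5% of filtered barcodes in WT and 54.0% in A20ZF7. A ratio in the remaining barcodes can therefore reflect this mix as well as levels within cells, and the part of each was not tested. The 10 genes with the largest ratios were Tnfsf8, Il17a, Eif3j1, Zeb2, Edem1, Stx11, Trac, Psmb1, Hnrnpa0 and Set. The 10 smallest were Fabp1, Fabp2, Apoa1, Prap1, Pigr, Spink1 and Rbp2, which rested on the WT barcode described above, and Dnajb1, Pde7b and Dlgap1.

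Il17a was found in 3 WT γδ T cells, with 8 UMIs of which 6 were in 1 cell, and in 19 A20ZF7 cells, with 114 UMIs and 24 at most in 1 cell. The levels were 96.9 CPM (41.8 to 191) and 1521 CPM, a ratio of 15.7 (7.70 to 37.2). The share of cells with a UMI was 4.55% (0.947 to 12.7) in WT and 32.2% (20.6 to 45.6) in A20ZF7, against 0.983% and 9.97% of stromal-marked barcodes. Il17a was higher in A20ZF7 in the remaining barcodes too, by a ratio of 8.35, so the difference was not particular to γδ T cells. With cells of 1 Trdc UMI taken in, the γδ ratio of 5.15 was below that of the remaining barcodes. After thinning to 500 UMIs, 1 WT and 14 A20ZF7 cells had a UMI. Without WT mouse 1 the ratio was 49.2 and without mouse 2 it was 10.2.

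Of the 19 A20ZF7 γδ T cells with Il17a, 9 had a Trgc UMI, 13 a Trac or Trbc UMI and 2 a Cd4 UMI. All 3 WT cells with Il17a had a Trac or Trbc UMI, so that among cells without one Il17a was found in 0 of 32 in WT and 6 of 21 in A20ZF7. In CD4 T cells, Il17a went from 331 to 2299 CPM and from 13.8% to 63.7% of cells, and in CD8 T cells from 237 to 886 CPM. Cd4 itself, the marker of CD4 T cells, had 1 UMI in WT γδ T cells and 8 UMIs in 6 A20ZF7 cells (12.1 and 107 CPM), and Trac, given below, was higher in A20ZF7 too. The part of CD4 T cells or their transcripts in the γδ signal was not tested. Il17f, its closest relative, had no UMI in WT γδ T cells, which allows up to 36.3 CPM. In A20ZF7 it had 12 UMIs in 8 cells, or 160 CPM, which is 4.41-fold above that limit. The counting error of the 12 UMIs is not part of this ratio. Il17f was also higher in A20ZF7 in CD4 T cells (29.8 and 316 CPM), CD8 T cells (5.71 and 133 CPM) and stromal-marked barcodes (0.291 and 54.1 CPM).

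Il22 did not follow Il17a. It was found in 11 cells of each library, with 43 UMIs in WT and 28 in A20ZF7, at 521 and 374 CPM, a ratio of 0.717 (0.429 to 1.18) against 1.89 in the remaining barcodes. Summed with its copy Iltifb, listed for A20ZF7 alone, the ratio was 0.769 (0.466 to 1.254). Without WT mouse 2, whose cells held most of the WT UMIs, it was 1.17, and with cells of 1 Trdc UMI taken in it was 1.40, so no direction can be given. Il17a and Il22 shared 1 cell in WT and 5 in A20ZF7. Any of Il17a, Il17f and Il22 was found in 13 of 66 WT and 26 of 59 A20ZF7 cells, and any of Gzma, Gzmb and Ccl5 in 30 and 46. Both kinds were found together in 4 of 66 WT cells (6.06%, 1.68 to 14.8) and 22 of 59 A20ZF7 cells (37.3%, 25.04 to 50.9). In stromal-marked barcodes, which should lack both, they were found together in 0.564% and 7.50%, in CD4 T cells in 8.26% and 52.2%, and in CD8 T cells in 9.49% and 35.4%. Co-detection was thus more frequent in A20ZF7 in every class compared, stromal-marked barcodes included, and the part of stray transcripts in the γδ values was not tested.

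Between the genotypes, 7 of the 21 cytotoxic and intraepithelial genes passed the filter, with 1 called higher in A20ZF7 (Gzmb), 2 lower (Fcer1g and Ctsw) and a median of 0.853 against 0.944 over all genes tested. Over all genes, 5.11% were called higher and 9.25% lower, and with so few members tested the counts do not set the list apart. Gzma was found in 16 of 66 WT and 27 of 59 A20ZF7 cells, at 2350 and 4136 CPM, a ratio of 1.76 (1.47 to 2.12), and Gzmb, which triggers target-cell death, at 315 and 680 CPM, a ratio of 2.16 (1.32 to 3.61). Both had larger ratios in the remaining barcodes, 3.15 and 2.67. Ccl5 was at 5075 and 6431 CPM, a ratio of 1.27 against 2.16. Nkg7 was at 751 and 640 CPM, a ratio of 0.853 (0.573 to 1.26). Fcer1g, a signalling adaptor of innate-like lymphocytes, was at 339 and 120 CPM (0.354), and Ctsw, a protease of cytotoxic cells, at 303 and 120 CPM (0.397, and 0.530 with cells of 1 Trdc UMI taken in). Gzma did not pass 2-fold, and its ratio was 2.79 without WT mouse 1, 1.14 without mouse 2 and 1.23 with cells of 1 Trdc UMI taken in. At 3 or more Trdc UMIs, with 17 and 8 cells, Gzma turned to 0.464 and Ccl5 to 0.751, and Gzmb was at 1.05, so the direction of Gzma and Ccl5 depended on the limit. In stromal-marked barcodes a Gzma UMI was found in 3.71% and 15.8% and a Ccl5 UMI in 9.90% and 21.3%.

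Ltb and Ccl4 were called lower among the 6 of 25 listed cytokines and chemokines that passed the filter, and Il17a higher, with a median of 0.717. Over all genes 14.4% were called. Ltb, the membrane anchor of lymphotoxin, had 38 UMIs in 21 WT cells and 11 UMIs in 11 A20ZF7 cells, at 460 and 147 CPM, a ratio of 0.319 (0.147 to 0.637) against 1.16 in the remaining barcodes. Ccl4, an inflammatory chemokine, was at 1151 and 547 CPM, a ratio of 0.475 (0.321 to 0.693) against 0.766, and it turned to 1.05 at 3 or more Trdc UMIs. Csf2, or GM-CSF, had 13 UMIs in WT and 2 in A20ZF7, and Ifng 1 and 2. The other 3 that passed, Il22, Areg and Ccl5, were not called. Tnfsf8, the CD30 ligand, had 1 UMI in WT and 22 in 11 A20ZF7 cells, a ratio of 24.2 (3.92 to 1000.2) against 4.06 in the remaining barcodes, and 2.93 with cells of 1 Trdc UMI taken in.

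Of 22 cytokine receptors listed, 8 passed the filter, with none called higher, 2 called lower (Il7r and Il12rb2) and a median of 0.737, against 9.25% called lower over all genes and a median of 0.944. Il7r had 106 UMIs in 41 of 66 WT cells, with 14 at most in 1 cell, and 45 UMIs in 27 of 59 A20ZF7 cells, with 5 at most. The levels were 1284 and 600 CPM, a ratio of 0.468 (0.322 to 0.669) against 0.879 in the remaining barcodes, and it was 0.446 without WT mouse 1 and 0.534 without mouse 2. The Il7r levels given above for CD4 T cells were also lower in A20ZF7, while those for CD8 T cells were alike. The lower level was thus not particular to γδ T cells. Il23r was found in 22 cells of each library, at 400 and 454 CPM, a ratio of 1.13 (0.682 to 1.89) against 2.28. Il1r1, the IL-1 receptor, was at 303 and 213 CPM, a ratio of 0.705 (0.352 to 1.37).

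Of 21 homing and residency genes 8 passed the filter, and only Cd69 was called, lower in A20ZF7, a share no higher than the 14.4% called over all genes. Cd69, which holds T cells in tissue, was found in 37 WT cells (62 UMIs) and 18 A20ZF7 cells (21 UMIs), at 751 and 280 CPM, a ratio of 0.373 (0.216 to 0.621) against 1.07. Gpr183, an oxysterol-sensing migration receptor, was at 581 and 294 CPM, a ratio of 0.505 (0.290 to 0.853) against 1.58, and it was 0.858 with cells of 1 Trdc UMI taken in. Cxcr6 was at 593 and 427 CPM (0.719, 0.446 to 1.15) and the gut-homing receptor Ccr9 at 303 and 334 CPM (1.10, 0.607 to 1.999). Among checkpoint and costimulatory genes, 3 of 15 passed. Ctla4, an inhibitory receptor, was at 194 and 520 CPM (2.69, 1.47 to 5.15, against 3.62 in the remaining barcodes), Icos at 339 and 640 CPM (1.89, against 1.94), and Cd226 was called lower.

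Tnfaip3, which encodes A20 itself, had 117 UMIs in 45 WT cells and 113 UMIs in 41 A20ZF7 cells, at 1417 and 1508 CPM, a ratio of 1.06 (0.814 to 1.39) against 1.45 in the remaining barcodes. The mutation changes the protein, so this level does not check the genotype. Nfkbia was at 1090 and 654 CPM, a ratio of 0.600 (0.415 to 0.859) against 1.32, and it was 0.852 with cells of 1 Trdc UMI taken in. Nfkb1 had a ratio of 0.982 and Birc3, an inhibitor of apoptosis induced by NF-κB, of 0.964. Of 25 genes of NF-κB and A20, 5 passed the filter, none was called and the median was 0.964. Over all genes 14.4% were called and the median was 0.944, so with so few members tested the count does not set the list apart. Of 26 transcription factors 10 passed, with a median of 0.922, and only Zeb2 was called, a share no higher than the 14.4% over all genes. Zeb2, a factor of terminally differentiated effector cells, was at 84.8 and 334 CPM (3.93, 1.65 to 10.8, against 1.21). Its ratio was 1.05 at 3 or more Trdc UMIs. Zeb2 stood at 703 CPM in stromal-marked barcodes of each library. Rora (0.838), Maf (1.18), Ikzf2 (0.830) and Id2 (1.13) had intervals that include 1.

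Among T cell receptor genes, Trdc was at 1853 and 1708 CPM and Cd3e at 908 and 787 CPM, values that the selection itself sets. Trgc1 was at 266 and 334 CPM (1.252, 0.677 to 2.33). Cd163l1 was at 315 and 213 CPM (0.678, 0.340 to 1.31) and Blk at 157 and 173 CPM (1.10, 0.470 to 2.58). Trac was at 84.8 and 306.9 CPM, a ratio of 3.62 (1.504 to 9.99) against 1.80, and Fyn, a Src-family kinase of receptor signalling, at 254 and 534 CPM (2.10, 1.21 to 3.75, and 1.35 with cells of 1 Trdc UMI taken in). Of 5 γδ receptor genes 2 passed the filter and none was called (median 1.07), of 12 genes of CD3 and receptor signalling 8 passed, with Fyn called higher and Fcer1g lower (0.948), and of 9 αβ T cell genes 3 passed, with Trac called higher (1.56). Of the 26 genes of the IL-17 programme, 12 passed the filter, with Il17a called higher, Il7r lower and a median of 0.843, a share of calls near the 14.4% over all genes.

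Of 15 immediate early and heat shock genes listed, 13 passed the filter and 3 were called lower in A20ZF7, Atf3 (0.236), Dnajb1 (0.0847) and Hspa1a (0.468). The other 10 were not called, and the median was 0.680. Over all genes 9.25% were called lower, and Hspa1a turned to 1.05 at 3 or more Trdc UMIs. Junb, the most abundant, was at 3682 and 2842 CPM (0.772, 0.645 to 0.923), and Jun at 1647 and 961 CPM (0.583, 0.432 to 0.782). These genes respond to tissue handling, and in the remaining barcodes Atf3, Dnajb1, Hspa1a and Jun were also lower, at 0.499, 0.459, 0.558 and 0.763. The part of handling was not tested. Of 14 proliferation genes 2 passed, and Hmgb2, a chromatin protein of cycling cells, was at 375 and 801 CPM (2.13, 1.36 to 3.40, against 2.39), and 1.63 with cells of 1 Trdc UMI taken in. Mki67 had 1 UMI in WT and 2 in 1 cell of A20ZF7.

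**Figure D4:**
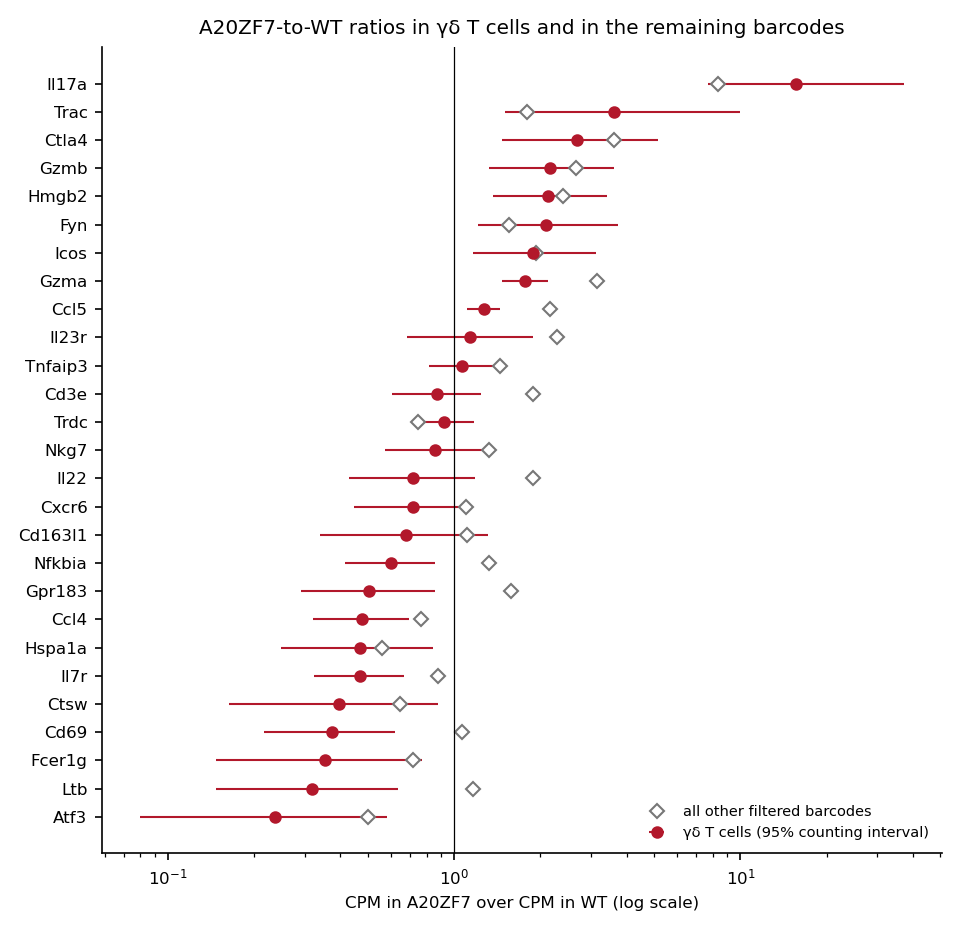
A20ZF7 to WT ratio of CPM, on a log axis, for genes of the lists and markers in γδ T cells (filled points with exact 95% counting intervals) and in all other filtered barcodes (open diamonds). Il17a is higher in both, whereas Il7r, Cd69, Ltb, Gpr183 and Nfkbia are lower in γδ T cells with diamonds near or above 1, apart from 0.879 for Il7r. With cells of 1 Trdc UMI taken in, these 5 γδ ratios lay between 0.683 and 0.891. Il7r was also lower in CD4 T cells of A20ZF7. The mix of cell types behind the diamonds differs between the libraries.

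Markers of other cell types were counted in the same cells. The 4 plasma cell markers summed to 60 UMIs in WT and 821 in A20ZF7, led by Igha at 509 and 9219 CPM, and 1 A20ZF7 barcode held 642 of the 1203 immunoglobulin UMIs. The 5 epithelial markers summed to 99 UMIs, led by Fabp2, and 2 UMIs, with 0 and 4 of them at 0. These 2 classes stood apart between the libraries, and their part in the gene ratios was not tested beyond the removal below. The 6 stromal markers summed to 18 and 19 UMIs (4 and 2 at 0, led by Acta2, which the selection did not use), the 3 endothelial markers to 11 and 15 (1 and 1 at 0, led by Pecam1), and the 4 mast cell markers to 12 and 6 (3 and 2 at 0, led by Kit). The 6 myeloid markers summed to 20 and 4 (1 and 3 at 0, led by Apoe) and the 2 erythroid markers to 0 in both. The 3 αβ T cell markers summed to 59 and 84 UMIs, led by Trbc2, the 2 CD8 T cell markers to 6 and 9, led by Cd8a, the 3 regulatory T cell markers to 65 and 51 (2 and 1 at 0, led by Ikzf2), and the 4 B cell markers to 1 and 3 (3 and 3 at 0, led by Cd79b). The 7 ILC2 markers summed to 24 and 15 UMIs, led by Gata3, the 5 ILC3 markers to 66 and 40, led by Il22, and the 6 NK or ILC1 markers to 207 and 316, led by Gzma. Il22 and Gzma also stand in the γδ lists. Without the 2 WT barcodes rich in enterocyte genes and the 2 A20ZF7 barcodes rich in immunoglobulin genes, a setting chosen after the data were seen, the Il17a ratio was 17.1, Il7r 0.466, Cd69 0.350 and Gzma 1.75.

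Surface antibody counts of the WT library separated γδ T cells weakly. The γδ receptor antibody, whose tag is given above, had a median of 3 counts in γδ T cells and also 3 in CD4 T cells, CD8 T cells and stromal-marked barcodes. As a share of antibody counts it was 1.15 times as high as in CD4 T cells, 1.07 times as in CD8 T cells and 1.16 times as in stromal-marked barcodes, so it barely separated them. Another antibody, C0986, is also listed as TCR, and its shares were 1.13, 1.11 and 1.09 times as high. The β-chain antibody had a median of 3.5 counts against 5 in CD4 and 4 in CD8 T cells. CD3 had 15 against 19 and 17, with 15 in stromal-marked barcodes too. CD4 had 1 against 6 in CD4 T cells, and CD5 had 3 against 13 and 9. CD90.2, a pan-T cell protein, had a median of 19 in γδ T cells and 2 in stromal-marked barcodes, 4.54 times as high as a share of antibody counts. Of 138 antibodies, CD90.2 had the highest and CD54, an adhesion molecule, the lowest such ratio (0.385). Medians were 1704 antibody counts per γδ T cell and 1767 per stromal-marked barcode.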

How the data were processed

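Per the labels, the libraries were made with a 5′ droplet kit, and the submitters' processing notes name Cell Ranger 7.1, R 4.3.3, Seurat 4.3 and mm10. The deposited gene and antibody matrices hold UMI counts, whose headers name Cell Ranger 8.0.0 and 7.1.0. The authors listed 33696 gene IDs for WT and 32285 for A20ZF7. The 31950 shared IDs were used, matched by ID, and 1905 of them carry different symbols in the lists. The antibody matrices of the genotypes were identical and were used for WT only. WT hashtags were called with HTODemux of Seurat 5.3.0. Doublets were left in, and removal by both hashtags or by Scrublet (scanpy 1.11.5) was an alternative. Counts were summed per class and divided by total UMIs (CPM). Intervals were exact binomial, Poisson or conditional, with a log-method interval for ratios of shares (scipy 1.17.1). Those of the A20ZF7 to WT gene ratios were tried on simulated Poisson counts, the error that they assume. That trial could not show how they hold where 1 cell carries many UMIs of a gene. Positions are from GENCODE M21. A bound for 0 UMIs used 3 counts and left out the error of the other count. The members and gene lists were chosen with earlier results of these data known. Genes were named if they were rule genes or markers, the extremes and most abundant of a list, among the 10 largest or smallest ratios between genotypes or by Cd163l1, or the 10 with the largest ratio over whichever of CD4 and CD8 T cells was closer, with at least 20 UMIs and 100 CPM, or variable genes with at least 10 UMIs. Mitochondrial, ribosomal protein, immunoglobulin, sex-linked and unnamed genes were left out of the 10. Others named were chosen after their values were seen. Some genes that the rule names are not reported here.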

Additional observations from a re-analysis of the deposited data

Results flagged for a closer look

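Several genes lay above 1 in the Cd163l1-positive to Cd163l1-negative ratio of one library and below 1 in the other, with intervals that both leave out 1, a difference that was not tested itself. Tnfaip3, which encodes A20, was at 827 against 1852 CPM in WT, a ratio of 0.447 (0.283 to 0.687), and at 2135 against 1284 CPM in A20ZF7, a ratio of 1.66 (1.11 to 2.47). It was found in 10 of 19 positive and 35 of 47 negative WT cells and in 14 of 15 and 27 of 44 A20ZF7 cells. Without barcodes rich in enterocyte or immunoglobulin genes the ratios were 0.576 and 1.65, and with 1 Trdc UMI allowed the WT ratio was 0.967. Junb, an AP-1 factor, had ratios of 0.726 and 1.53, and its WT ratio was 0.883 without those barcodes and turned to 1.15 with 1 Trdc UMI allowed. Crip1, a LIM-domain protein, had ratios of 4.02 and 0.223, and Cox5a, a subunit of the respiratory chain, 2.71 and 0.148. Their WT ratios without those barcodes were 0.816 and 1.31. Nme2, a nucleoside diphosphate kinase, had ratios of 2.56 and 0.234, and its WT ratio without them was 2.33. With 1 Trdc UMI allowed the A20ZF7 ratio was 0.512 for Crip1 and 0.807 for Nme2. Cd74, the invariant chain of MHC class II, had a ratio of 23.7 in WT, and no UMI in positive A20ZF7 cells, where 3 counts would give a ratio of 0.351. Atpif1, an inhibitor of the mitochondrial ATP synthase, had 8.13 in WT and, with 3 counts in place of 0, 0.496 in A20ZF7. Its WT ratio without those barcodes was 1.31. With 1 Trdc UMI allowed the WT ratio turned to 0.844 for Cd74 and 0.916 for Atpif1, so for Junb, Cd74 and Atpif1 the WT direction depended on the limit.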

How the results depend on the processing

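No paired analysis was possible because each genotype had 1 library and no result came from a test. The smaller γδ share of A20ZF7 kept its direction in every alternative run, with ratios of 0.282 at 3 or more Trdc UMIs and 0.393 to 0.605 otherwise. Without WT mouse 1 or 2 it was 0.593 and 0.605. The Cd163l1-positive share without Trac or Trbc UMIs was 15.6% in WT and 28.6% in A20ZF7, so that the ratio of 0.883 turned to 1.83 (0.639 to 5.23), and after thinning to 500 UMIs it was 16.7% in WT and 11.8% in A20ZF7.

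Counts of genes past 2-fold depended on depth and on the gate. So does the number of genes that pass the UMI filter. As reported, and in the order below, 724, 341 and 285 genes passed it. That number was not recorded for the alternatives with other cells, depths or UMI filters. The counts therefore do not show whether the share of genes called changed. For A20ZF7 against WT (104), and for Cd163l1-positive against negative cells in WT (54) and in A20ZF7 (51), they were 391, 308 and 253 at 1 or more Trdc UMIs, 17, 8 and 8 at 3 or more, and 16, 25 and 11 without Trac or Trbc UMIs. They were 25, 14 and 19 after thinning, 411, 218 and 210 at a filter of 10 UMIs, and 21, 11 and 12 at 50 UMIs. The WT count was 34 at 1000 UMIs per barcode and 42 without WT mouse 1 and 22 without mouse 2. The A20ZF7 count was 14 at 1 CPM limit for both groups, an alternative chosen after seeing the data.

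Of 184 gene ratios, 85 had an interval that left out 1. Of these, 29 crossed 1 under some alternative, and the cause was not tested. Of the 99 whose interval included 1, 86 crossed it somewhere. Among the latter, Il22 between genotypes (0.717) was 1.40 at 1 or more Trdc UMIs and 1.82 after thinning, Tnfaip3 (1.06) was 0.552 without Trac or Trbc UMIs, and the Cd163l1 ratio of Cd69 in WT (0.856) was 1.45 at 1 or more Trdc UMIs. Of 28 named genes past 2-fold between genotypes, 15 were so in the same direction at 1 or more Trdc UMIs, against 4 of 25 for the Cd163l1 ratio in WT and 5 of 18 in A20ZF7. The 29 follow, and Crip1, not among the 184 in WT, turned there too (0.816) without the barcodes rich in enterocyte genes. At 1 or more Trdc UMIs the Cd163l1 ratio in WT turned for Apoa1 (0.997), Atpif1 (0.916), Ccnd2 (1.05), Ccnl1 (1.03), Cd74 (0.844), Junb (1.15), Slc9a9 (1.15) and Spink1 (0.631), and in A20ZF7 for Serbp1 (1.05). At 3 or more Trdc UMIs the A20ZF7 to WT ratio turned for Ccl4 (1.05), Ccl5 (0.751), Gzma (0.464) and Hspa1a (1.05). There the Cd163l1 ratio turned in WT for Ccl5 (1.498), Gpr183 (0.766) and Gzma (31.3), and in A20ZF7 for Ccl5 (6.19), Dgat1 (0.298), Gzma (11.9), Gzmb (1.19) and Nkg7 (2.38). With 2 CD3 UMIs required, Jun turned in A20ZF7 (0.952). Without Trac or Trbc UMIs, Psmb1 between genotypes (0.601), Gpr183 (0.966) and Junb (1.38) in WT and Il17a in A20ZF7 (0.329) turned. Il22 turned in WT without mouse 2 (0.568), Pigr (0.583) and Rbp2 (0.875) without the barcodes rich in enterocyte genes, also chosen after seeing the data, Set between genotypes (0.870) and Rgs1 in A20ZF7 (0.913) after thinning. Il7r, Cd69, Ltb and Il17a kept their A20ZF7 to WT direction in every alternative that gave a value, but at 1 or more Trdc UMIs Il7r (0.726), Cd69 (0.683) and Ltb (0.891) were within 2-fold and Il17a was 5.15.

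Depth limited what could be compared. With 66 and 59 cells of about 950 UMIs, a gene needed 20 UMIs to be listed, and no UMI allowed up to 36.3 CPM in WT and 40.03 in A20ZF7. Doublets and stray transcripts were not removed, the annotations of the libraries differ, and the mice of A20ZF7 could not be told apart.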
